A study of Mus musculus with 4 samples.

Results

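The genes described here are the 10 that encode the subunits of the transcription factor NF-kB and its feedback inhibitors: Nfkb1, Nfkb2, Rela, Relb, Rel, Nfkbia, Nfkbib, Nfkbie, Nfkbiz and Tnfaip3. They were taken by gene symbol, with no threshold on their values, and all 10 were found among the 24625 genes of the count tables. All 10 passed the filter on low counts, as did 12747 genes in all. RNA came from peritoneal macrophages of C57BL/6 mice (C57BL/6J in the series' design text) fed either standard chow, the control diet, or a high-fat diet with 60% of its energy as fat, for 12 weeks. All mice were injected intraperitoneally with 3% thioglycollate medium, which irritates and draws in leukocytes, and cells were taken 4 days later, so both groups are inflamed and there is no resting control. Each diet had 2 libraries of RNA depleted of ribosomal RNA. The labels do not say whether a library is 1 mouse or a pool, nor the age or sex of the mice, and p-values measure the spread between these libraries, which may be technical.

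NF-kB is a family of dimeric transcription factors that drives much of the macrophage's response to microbial products and cytokines. In a resting cell the dimers are held in the cytoplasm by IkB proteins. A signal activates the IkB kinase complex, the IkB protein is degraded, and the dimer enters the nucleus. Several of its target genes encode its own subunits and inhibitors, Nfkbia and Tnfaip3 among them, so the transcripts of these genes form part of a feedback loop. An mRNA level reports neither the protein, nor its phosphorylation, nor its place in the cell.

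The promoters are shown first because NF-kB acts on some of these genes itself, through kappa B elements. For 7 of the 10 genes RefSeq promoter windows were at hand (10 windows, build GRCm38.p6), and the 250 bases before each transcription start were searched on both strands for the kappa B consensus, the recognition sequence of NF-kB. A match was present in 7 of the 10 windows and in at least 1 window of 5 of the 7 genes, against 7.25% of 32851 mouse windows of the same length and 8.60% of 11748 windows of the genes tested. Rela and Nfkbib had no match, which says only that these letters are not in their windows. One window of each gene with a match is printed 5′ to 3′, the one closest to the 5′ end of the gene, with the bases of each match in capitals:
Nfkbia (chr12:55492648-55492897, minus strand): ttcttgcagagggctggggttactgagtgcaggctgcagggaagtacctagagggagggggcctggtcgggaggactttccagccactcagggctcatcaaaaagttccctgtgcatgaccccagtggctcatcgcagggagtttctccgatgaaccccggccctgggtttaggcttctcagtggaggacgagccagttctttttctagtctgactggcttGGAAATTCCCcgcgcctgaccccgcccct
Tnfaip3 (chr10:19015411-19015660, minus strand): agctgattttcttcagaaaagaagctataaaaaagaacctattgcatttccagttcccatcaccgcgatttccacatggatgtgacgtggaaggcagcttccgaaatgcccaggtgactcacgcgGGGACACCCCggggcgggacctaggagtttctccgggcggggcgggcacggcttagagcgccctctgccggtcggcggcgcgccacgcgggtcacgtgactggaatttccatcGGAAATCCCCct
Nfkbie (chr17:45555450-45555699, plus strand): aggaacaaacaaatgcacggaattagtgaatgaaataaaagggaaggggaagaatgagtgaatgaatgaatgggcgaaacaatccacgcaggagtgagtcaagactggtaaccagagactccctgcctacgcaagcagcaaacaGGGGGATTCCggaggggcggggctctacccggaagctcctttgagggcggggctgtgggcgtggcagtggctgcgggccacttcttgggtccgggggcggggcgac
Rel (chr11:23770970-23771219, minus strand): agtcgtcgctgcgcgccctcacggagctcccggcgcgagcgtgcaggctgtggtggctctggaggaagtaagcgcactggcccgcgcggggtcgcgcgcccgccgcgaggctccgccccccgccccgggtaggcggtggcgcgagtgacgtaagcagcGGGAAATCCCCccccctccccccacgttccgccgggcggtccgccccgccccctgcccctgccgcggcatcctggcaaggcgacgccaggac
Nfkb2 (chr19:46304487-46304736, plus strand): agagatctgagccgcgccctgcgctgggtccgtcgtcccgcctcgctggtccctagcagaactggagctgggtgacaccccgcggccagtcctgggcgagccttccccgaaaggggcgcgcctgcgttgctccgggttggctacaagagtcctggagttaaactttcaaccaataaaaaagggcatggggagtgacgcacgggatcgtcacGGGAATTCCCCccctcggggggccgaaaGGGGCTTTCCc
In the Nfkbia window the match began 29 bases before the transcription start. In that of Tnfaip3 matches began 125 and 12 bases before it, in that of Nfkbie 106 bases, and in that of Rel 92 and 91 bases before it, which overlap. The Nfkb2 window held overlapping matches 39 and 38 bases before the start and another at 11 bases. A match is a description of the letters and not evidence of binding in these cells.

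Gene counts ranged from 39347347 to 45658551 per library, and every library held abundant macrophage transcripts, with Emr1 (F4/80) at 964 to 1032 CPM and Cd68 at 999 to 1239 CPM. CPM, the unit of levels here, relates each count to the TMM-adjusted size of the library. In the test across all genes, edgeR's quasi-likelihood test with Benjamini-Hochberg adjustment and a threshold of 0.05, 78 of 12747 genes passed (0.612%), 41 higher (0.322%) and 37 lower (0.290%) with high-fat diet.

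Per length of transcript, a pair of feedback genes, Nfkbia and Tnfaip3, stood above the other 8 genes in every library. On the scale of CPM per kilobase of merged exon, Nfkbia, which encodes IkB alpha, the inhibitor that is degraded and remade fastest, had the highest level of the 10 in every library, at 72.6 ± 1.15 with control diet and 96.6 ± 9.82 with high-fat diet (levels here and below are means ± SD over 2 libraries). Tnfaip3, encoding A20, a ubiquitin-editing enzyme that shuts off signalling upstream of the kinase, came second in every library at 63.2 ± 0.529 and 54.9 ± 6.05. Nfkb1, whose product p105 is processed to the DNA-binding subunit p50, was the most abundant subunit transcript at 20.6 ± 1.46 and 19.0 ± 2.34. Nfkbie, for IkB epsilon, followed at 14.9 ± 1.01 and 15.2 ± 0.821, and Rel, for c-Rel, at 12.3 ± 0.669 and 11.5 ± 2.41. Nfkb2 (p100, processed to p52 in the noncanonical pathway) stood at 9.88 ± 1.80 and 8.14 ± 0.346, and Rela (p65, the main activating subunit) at 8.01 ± 1.498 and 6.67 ± 0.266. Relb, the partner of p52, was at 7.71 ± 1.17 and 5.83 ± 0.469. Nfkbiz, a nuclear IkB that acts as a coactivator of selected targets, was at 5.76 ± 0.00921 and 5.17 ± 0.484, and Nfkbib, for IkB beta, was lowest at 2.43 ± 0.0255 and 2.55 ± 0.0682. The order was the same in all 4 libraries except that Relb and Nfkbiz changed places in 1 of them. Between libraries, the ranges of Nfkb2 and Rela, and of Rela and Relb, overlapped with control diet, and those of Relb and Nfkbiz with high-fat diet. Within each of the 4 libraries Nfkb2 was above Rela and Rela above Relb. The mean level of Nfkb2 was 1.23 times that of Rela with control diet and 1.22 times with high-fat diet. For Rela over Relb the figures were 1.04 and 1.15.

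**Figure D1:**
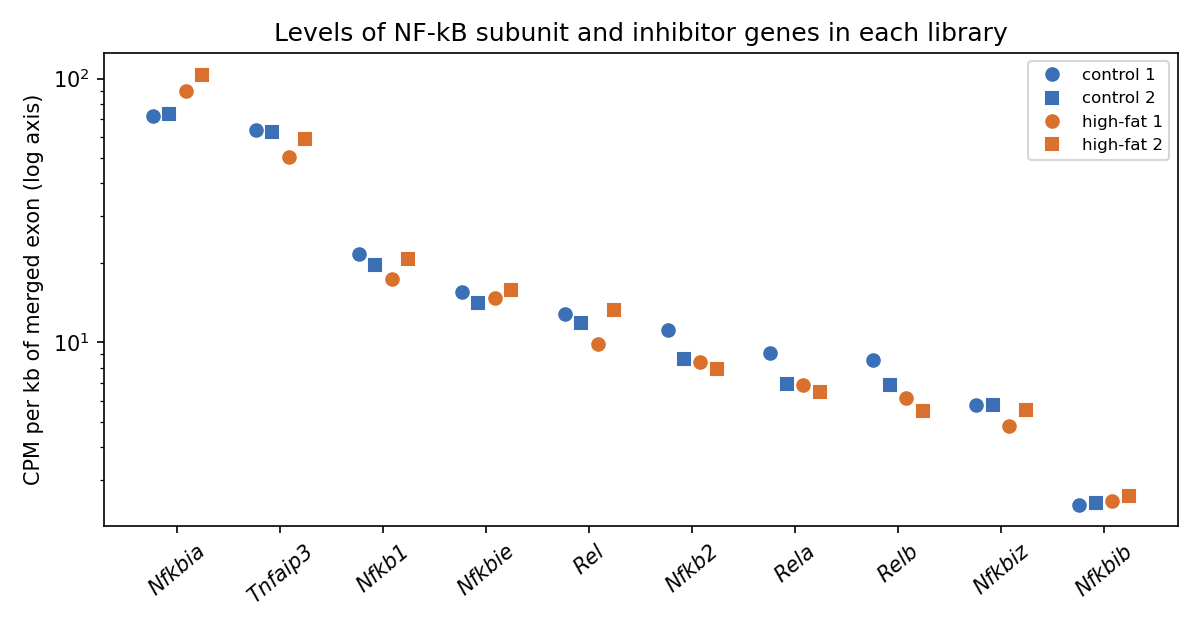
Per-length level (CPM per kilobase of merged exon, log axis) of each of the 10 genes, 1 point per library, control in blue and high-fat in orange. Nfkbia is at the top in all 4 libraries, at 71.8 to 104, and its 2 high-fat points sit above its 2 control points.

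None of the 5 subunit transcripts passed the test between diets. Relb, the subunit with the lowest log2 fold change, lies on chromosome 7 from 20191571 to 20214787 (mm9, minus strand) with 11 exon blocks in the deposited models. It had 18.8 and 15.1 CPM in control replicates 1 and 2 and 13.5 and 12.1 CPM in high-fat replicates 1 and 2. Both high-fat libraries were below both control libraries. The gap between the control libraries, 0.310 on the log2 scale, compares with a difference between diets of -0.40 ± 0.15 on that scale (log2 fold change ± SE; adjusted p = 0.237, edgeR). Nfkb2, on chromosome 19 from 46379227 to 46386580, had 36.7 and 28.3 CPM in the controls, then 27.6 and 26.0 CPM on high-fat diet. Its control replicate 1 stood apart from the other 3 libraries, and the log2 fold change was -0.28 ± 0.14 (adjusted p = 0.332). Rela, on the same chromosome from 5637490 to 5648130, showed the same arrangement, with 24.6 and 18.8 CPM against 18.6 and 17.6 CPM and a log2 fold change of -0.26 ± 0.15 (adjusted p = 0.397). Without control replicate 1 these log2 fold changes were -0.25 for Relb, -0.09 for Nfkb2 and -0.07 for Rela, and without control replicate 2 they were -0.55, -0.45 and -0.44. For the other two subunits the diets overlapped. Nfkb1 had 89.2 and 80.7 CPM against 71.3 and 85.0 CPM (log2 fold change -0.12 ± 0.11), and Rel had 32.9 and 30.5 CPM against 25.4 and 34.2 CPM (-0.09 ± 0.15). The high-fat libraries of Rel enclosed its control values, and for Nfkb1 1 high-fat library lay between the controls. Without high-fat replicate 1 the sign of both turned, to 0.0018 for Nfkb1 and 0.11 for Rel.

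Nfkbia had the highest log2 fold change of the 10 genes and missed the threshold. It lies on chromosome 12 from 56590396 to 56593634 (mm9, minus strand), with 6 exon blocks that overlap no other gene model, and its promoter is the first of the printed sequences. Control replicates 1 and 2 had 113 and 116 CPM, and high-fat replicates 1 and 2 had 142 and 164 CPM. Both high-fat libraries were above both control libraries, and the control libraries lay close together. Its mean was 115 ± 1.81 CPM in controls against 153 ± 15.5 CPM on high-fat diet, or 1.33-fold (95% interval 1.13 to 1.56). The log2 fold change was 0.41 ± 0.10, and edgeR's adjusted p over all genes was 0.109 (0.00284 unadjusted). It ranked 328 of 12747 genes by p. Its direction held in all 15 alternative fits, with log2 fold changes from 0.305 to 0.514, the latter without high-fat replicate 1. It passed by DESeq2 (adjusted p = 0.0374), where 2.82% of all genes passed, against 0.612% in the main edgeR test. It also passed by edgeR without a filter on low counts (adjusted p = 0.0261), where 522 of 17380 genes passed. In the other alternatives that kept every library the adjusted p ran from 0.0615 (edgeR, trend on GC content and exon length removed) to 0.142 (limma-voom).

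The other inhibitors did not share that pattern. Nfkbie had 37.7 and 34.2 CPM in the controls against 35.5 and 38.3 CPM on high-fat diet, so the diets overlapped, and its log2 fold change was 0.04 ± 0.11 (adjusted p = 0.884). Nfkbib had 4.70 and 4.77 CPM against 4.87 and 5.06 CPM, from 185 to 226 counts per library. Its diets did not overlap, yet the log2 fold change of 0.07 ± 0.18 was well inside its standard error. Nfkbiz had 22.3 and 22.4 CPM against 18.7 and 21.4 CPM (-0.16 ± 0.12, adjusted p = 0.539), and without high-fat replicate 1 it was at -0.06. Tnfaip3, on chromosome 10 from 18720717 to 18735216 (mm9, minus strand, 9 exon blocks), had 292 and 289 CPM against 232 and 272 CPM. Both high-fat libraries were below both control libraries, and the log2 fold change was -0.20 ± 0.11 (adjusted p = 0.364). High-fat replicate 1 was the lower of the pair, and without it the log2 fold change was -0.09.

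Counted together, 0 of the 10 genes passed the test, against 0.612% of all genes. By DESeq2 1 passed, Nfkbia, against 2.82% of all genes, and by limma-voom 0, against 0.220%. At an unadjusted p under 0.05 by edgeR there were 2, Nfkbia above 0 (8.56% of all genes) and Relb below 0 (8.46%), against 17.0% of all genes in either direction. The diets did not overlap for 7 of the 10 against 51.0% of all genes tested, with 2 higher (26.1% of all genes) and 5 lower (24.9%). Their median log2 fold change was -0.14, with 7 of 10 below 0, beside a median of -0.01 and 50.8% below 0 over all genes. The 95% intervals of the log2 fold change, not adjusted for the number of genes, gave folds between 0.596 (the lower bound for Relb) and 1.56 (the upper bound for Nfkbia) over all 10 genes. For Nfkb1 the interval was 0.772 to 1.10, for Tnfaip3 0.735 to 1.02 and for Nfkbie 0.868 to 1.21.

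**Figure D2:**
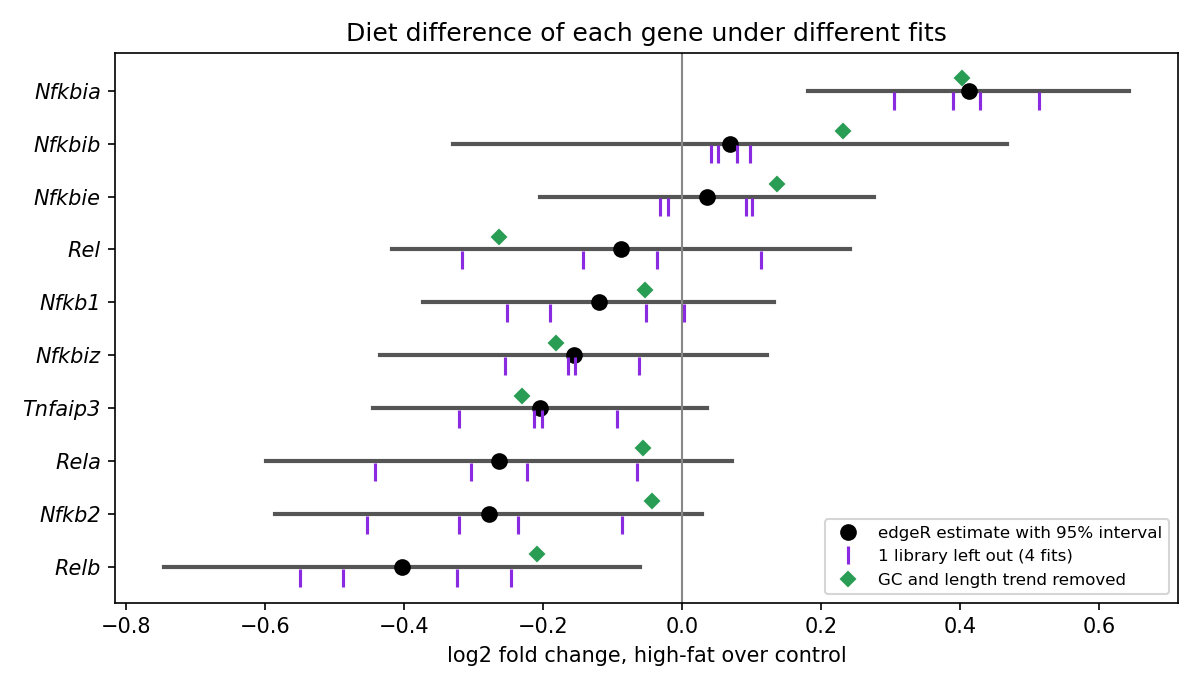
Log2 fold change of each gene, high-fat over control, with its 95% interval from edgeR (black), the 4 fits that each leave out 1 library (purple ticks) and the fit with the trend on GC content and exon length removed (green). The intervals of Nfkbia and Relb do not include 0, and the green points of Rela, Nfkb2 and Relb lie nearer 0 than the black points.

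The GC content of the transcripts was set beside the diet differences, a check added after the values were seen. Rela, Nfkb2 and Relb, the lowest of the 10 by log2 fold change, were also the most GC-rich, at 59.4%, 59.3% and 61.1% GC, while Nfkbib, almost as GC-rich at 58.8%, was above 0. The first 3 exceeded at least 95.1% of the 12148 genes with a GC value, and Nfkbib 93.8%. Over those genes the median log2 fold change went from 0.119 in the lowest of 5 equal bins of GC content to -0.20 in the highest. A trend ran between replicates too. In the highest bin, control replicate 1 exceeded control replicate 2 by a median of 0.253, and high-fat replicate 1 exceeded high-fat replicate 2 by 0.147. With each library's trend on GC content and exon length removed, the log2 fold change was -0.06 for Rela, -0.04 for Nfkb2 and -0.21 for Relb (adjusted p = 0.784, 0.807 and 0.297 by edgeR). The same step took Rel, at 42.5% GC the least GC-rich of the 10, from -0.09 to -0.26, Nfkbib from 0.07 to 0.23 and Nfkbie from 0.04 to 0.14. It left Nfkbia (52.9% GC) at 0.40 and Tnfaip3 (49.4% GC) at -0.23, close to their values without it, with adjusted p = 0.0615 and 0.226. The trend was estimated on the same 4 libraries, so a part of it that belongs to diet cannot be told apart from one that belongs to library preparation. The median over the 10 genes was -0.055 after this step, with 7 of 10 still below 0.

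**Figure D3:**
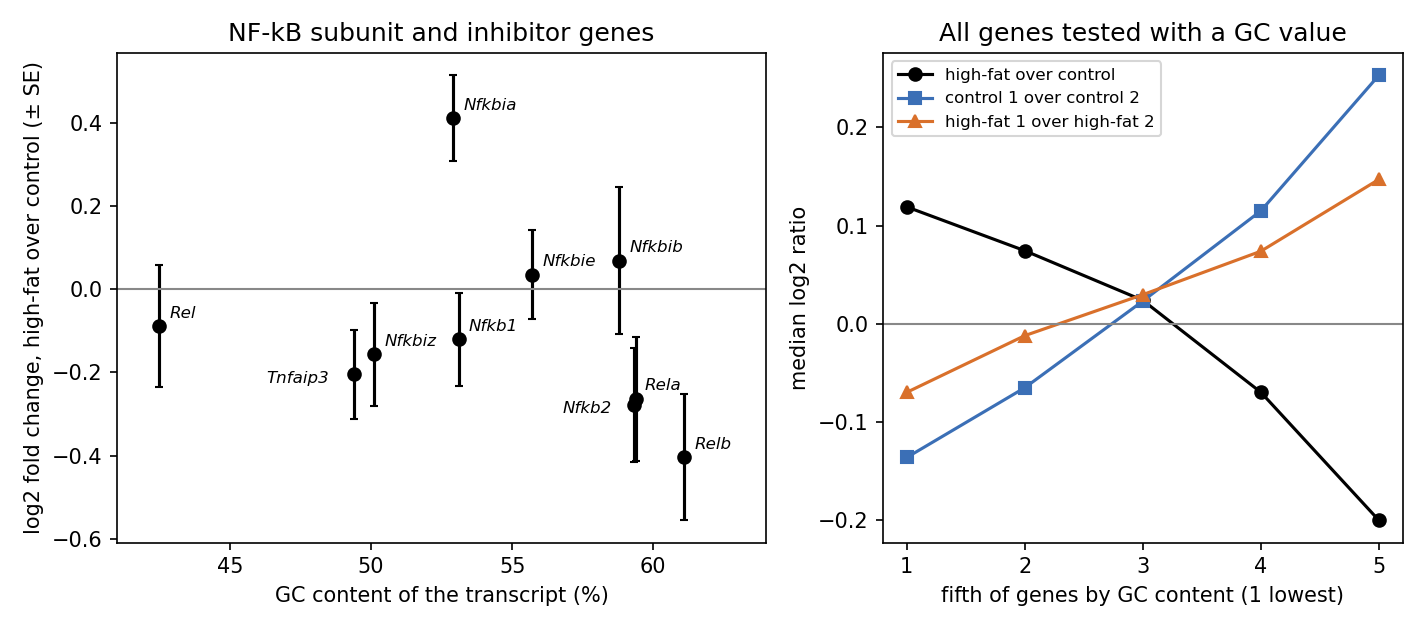
Left, log2 fold change with its SE against the GC content of the transcript for the 10 genes. Right, the median log2 ratio in 5 equal bins of all genes by GC content, for high-fat over control and for replicate 1 over replicate 2 in each diet. Relb, Rela and Nfkb2 sit at the right and low, with Nfkbib beside them above 0, Nfkbia stands above the rest at 52.9% GC, and the medians of the diet ratio fall from 0.119 to -0.20 across the bins.

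Ratios within a library do not depend on how libraries were scaled. The summed per-length level of the 3 cytoplasmic inhibitors (Nfkbia, Nfkbib and Nfkbie) over that of the 5 subunits was 1.42 and 1.67 with control diet and 2.20 and 2.27 with high-fat diet. The diets did not overlap. The numerator went from 89.9 ± 0.164 to 114 ± 10.7 and the denominator from 58.5 ± 6.59 to 51.2 ± 3.67. Both sums hold GC-rich genes, Nfkbib and Nfkbie in the first and Rela, Nfkb2 and Relb in the second. Nfkbia, at 52.9% GC, made up most of the first sum, 80.8% ± 1.13 with control diet and 84.4% ± 0.68 with high-fat diet. The part of GC content in the ratio was not tested. The ratio of Nfkbia to Tnfaip3, a pair of feedback genes of middling GC content picked after their values were seen, was 1.13 and 1.17 with control diet and 1.77 and 1.75 with high-fat diet. Replicates of this ratio lay far closer together than the diets, at 1.15 ± 0.0277 and 1.76 ± 0.0153. Nfkbia over Nfkb1 was 3.32 and 3.75 against 5.18 and 5.02. With 2 libraries per diet the smallest two-sided p that an exact permutation test can give is 0.333. Any ratio whose diets do not overlap gives it, as each of these did, so the test cannot decide whether they differ by diet. As a share of the summed per-length level of the 10 genes, Nfkbia made up 33.4% ± 1.60 with control diet and 42.8% ± 0.385 with high-fat diet, and Tnfaip3 29.1% ± 0.687 and 24.3% ± 0.430. Among the 5 subunits Nfkb1 made up 35.3% ± 1.49 and 37.0% ± 1.92, Rel 21.0% ± 1.23 and 22.5% ± 3.10, Nfkb2 16.8% ± 1.18 and 16.0% ± 1.82, and Rela 13.6% ± 1.02 and 13.1% ± 1.46, and the diets overlapped for these 4. Relb made up 13.5% and 12.8% against 12.7% and 10.2%, which did not overlap.

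**Figure D4:**
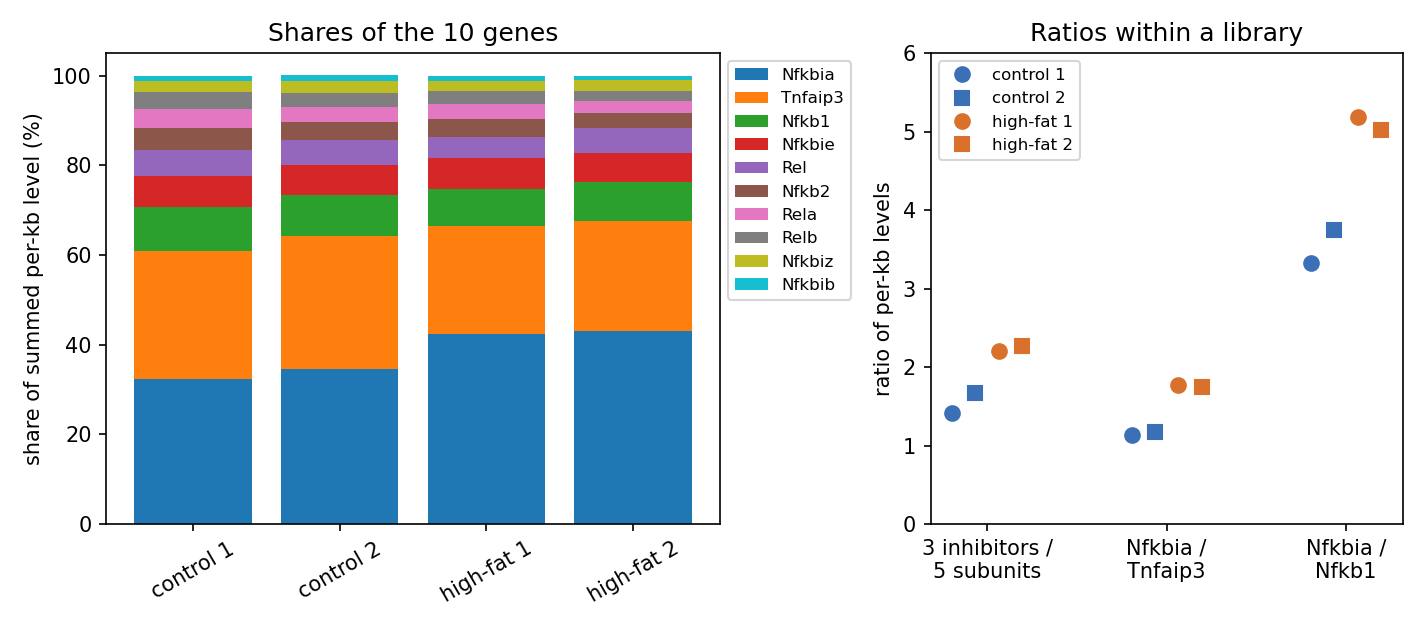
Left, stacked bars of the share (%) of each gene in the summed per-length level of the 10 genes, 1 bar per library. Right, ratios of per-length levels within each library, with control in blue and high-fat in orange. The share of Nfkbia is 32.3% and 34.6% with control diet and 42.5% and 43.1% with high-fat diet, and its ratio to Tnfaip3 lies at 1.13 and 1.17 against 1.77 and 1.75.

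No regulator around these genes passed the test between diets. Over 5 lists, 0 of 66 genes passed by edgeR, DESeq2 or limma-voom, and 3 (4.55%) had an unadjusted p under 0.05 by edgeR, against 17.0% of all genes. The median log2 fold change was -0.02, and the diets did not overlap for 25 of the 66 (37.9%), against 51.0% of all genes. In the list of other IkB proteins all 3 genes were below 0: Nfkbid (IkB NS) at -0.21 ± 0.11, Bcl3, a nuclear IkB that binds p50 and p52, at -0.53 ± 0.27, and Nfkbil1 at -0.20 ± 0.39. These 3 were at -0.07, -0.33 and -0.01 with the trends on GC content and exon length removed together. From here on the GC trend stands for both, and their separate parts were not tested. In the list of IKK complex and IKK-like kinases 5 of 8 were above 0. Ikbke, an inducible IKK-like kinase, had 101 and 85.7 CPM against 75.1 and 63.4 CPM, or -0.43 ± 0.12 on the log2 scale (adjusted p = 0.139 by edgeR), and -0.33 with the GC trend removed (0.0832). It passed by edgeR without a filter on low counts (adjusted p = 0.0238), where 522 of 17380 genes passed. Without high-fat replicate 1 its log2 fold change was -0.558. Map3k14 (NIK, the kinase of the noncanonical pathway) was at -0.47 ± 0.30, and the adaptors Tank and Azi2 at 0.24 ± 0.13 and 0.17 ± 0.09. Removing the GC trend took Map3k14 to -0.22, Tank to 0.05 and Azi2 to 0.09. Of 30 receptor-proximal genes, 20 were below 0 with a median of -0.03. Ticam1 (TRIF, an adaptor of Toll-like receptors) was at -0.36 ± 0.17, Tnfrsf1b (TNF receptor 2) at -0.17 ± 0.10, Tnfrsf11a (RANK) at 0.24 ± 0.12 and the kinase gene Ripk2 at 0.21 ± 0.12. In that order, they were at -0.21, -0.08, 0.20 and 0.08 with the GC trend removed. Of 13 ubiquitin-editing genes, 8 were below 0 with a median of -0.02. Tnip1, encoding a ubiquitin-binding partner of A20, had 26.4 and 20.7 CPM against 16.9 and 17.1 CPM (-0.47 ± 0.14, adjusted p = 0.168 by edgeR), and -0.27 with the GC trend removed. Rnf31 and Rbck1, subunits of the linear ubiquitin ligase, were at -0.37 ± 0.20 and -0.36 ± 0.19, and the deubiquitinase gene Cyld at 0.10 ± 0.09. Without the GC trend Rnf31 and Rbck1 were both at -0.16 and Cyld at 0.03. Of 12 genes for IkB degradation and other regulation, 7 were above 0 with a median of 0.06. Skp1a, a subunit of the ligase that marks IkB for degradation, was at 0.34 ± 0.11 (adjusted p = 0.192 by edgeR), or 0.16 with the GC trend removed. Its ligase partner Cul1 was at 0.11 ± 0.10, Nkap at 0.15 ± 0.10, and Nkiras2 at -0.22 ± 0.11. Without the GC trend Cul1 was at -0.006, Nkap at 0.04 and Nkiras2 at -0.10.

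Target genes of NF-kB went both ways. Of 40 listed, 35 passed the filter, and Il12b, Il23a, Nos2, Csf2 and Csf3 did not. Of the 35, 20 were above 0 and 15 below, with a median log2 fold change of 0.127, all before any removal of the GC trend. At an unadjusted p under 0.05 there were 10 above 0 and 5 below, against 17.0% of all genes in either direction, and the diets did not overlap for 21 of the 35 (12 higher and 9 lower), against 51.0%. By edgeR 2 rose and 1 fell, and the list was drawn up with these calls known, so the count is no independent evidence. Cxcl1, a chemoattractant for neutrophils, rose from 15.8 and 16.7 CPM to 28.9 and 36.8 CPM (log2 scale 1.01 ± 0.14, adjusted p = 0.0266). Vcam1, an adhesion molecule, rose from 4.27 and 3.71 CPM to 8.90 and 8.79 CPM (1.15 ± 0.17, adjusted p = 0.0302). Mmp9, a gelatinase, fell from 21.4 and 18.2 CPM to 6.01 and 8.26 CPM (-1.48 ± 0.18, adjusted p = 0.0161). All 3 calls ended without either control library, and those of Cxcl1 and Vcam1 also by limma-voom. Il6 had 5 counts in each control library, with 21 and 37 after high-fat feeding (2.41 ± 0.55, adjusted p = 0.0898). Other targets, picked after their values were seen, did not pass in the main edgeR test and fell on both sides. Il1rn, the interleukin-1 receptor antagonist gene, had 1344 and 1304 CPM against 1748 and 2500 CPM (0.68 ± 0.17, adjusted p = 0.109), and Cxcl2, Cxcl3, Ptgs2, Ier3 and Il1a were also higher without overlap. Slc2a6 was at -0.90, the growth factor gene Csf1 at -0.81, Bcl2a1a at -0.38 and Irf1 at -0.28, all lower without overlap. By DESeq2 Il1rn (adjusted p = 0.00117), Cxcl3 (0.00128) and Slc2a6 (0.0118) passed, against 2.82% of all genes. Without a filter on low counts Il6, Il1rn, Cxcl3, Ptgs2, Ier3, Slc2a6 and Csf1 passed by edgeR, where 522 of 17380 genes passed. Bcl2a1a passed by edgeR with the GC trend removed (adjusted p = 0.0466), where 170 of 12148 genes passed. Tnf and Il1b overlapped between diets. Tnf had 169 and 161 CPM against 164 and 211 CPM (0.18 ± 0.13), and Il1b 14.0 and 17.3 CPM against 16.4 and 19.1 CPM (0.18 ± 0.15). With the GC trend removed Cxcl1, Vcam1 and Mmp9 were at 0.89, 1.03 and -1.35. Il6, Il1rn, Cxcl2, Cxcl3, Ptgs2, Ier3 and Il1a were then at 2.21, 0.54, 0.36, 1.38, 0.60, 0.78 and 0.16. In the same fit Slc2a6, Csf1, Bcl2a1a and Irf1 were at -0.72, -0.70, -0.49 and -0.24, Tnf at 0.14 and Il1b at 0.06. Of 12 immediate-early genes, 11 passed the filter with a median of 0.03, and only Fos, a subunit of AP-1, passed the test, rising from 58.4 and 61.4 CPM to 87.8 and 91.2 CPM (0.58 ± 0.09, adjusted p = 0.0387 by edgeR). That call ended by limma-voom and without either control library. Dusp1, a MAP kinase phosphatase gene, was at 0.44 ± 0.12, Atf3 at -0.26 ± 0.11 and Jun at -0.21 ± 0.10. Without the GC trend Fos, Dusp1, Atf3 and Jun were at 0.53, 0.50, -0.30 and -0.09.

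**Figure D5:**
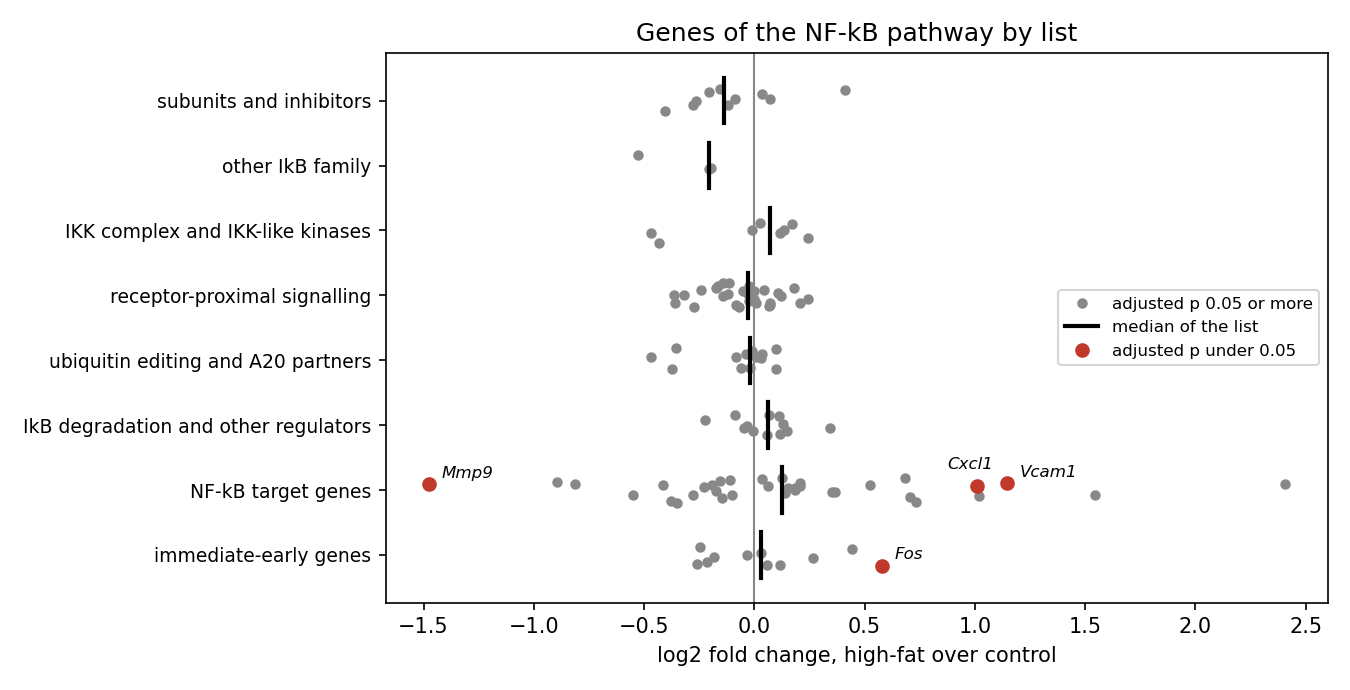
Log2 fold change, high-fat over control, of each gene tested in the list of subunits and inhibitors and in 7 lists of related genes, with the list median as a black bar. Red points passed the edgeR test at an adjusted p of 0.05: Cxcl1, Vcam1 and Fos above 0 and Mmp9 below 0, with none among the subunits, inhibitors or regulators.

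Transcripts of other cell types moved with diet or with single libraries, and their part in the values above was not tested. In bulk RNA fewer cells of a type and less RNA per cell cannot be told apart. The summed level of 11 B cell markers was 69.3 to 74.4 CPM in the control libraries, 73.5 CPM in high-fat replicate 1 and 187 CPM in high-fat replicate 2. High-fat replicate 2 was the higher of its pair for Nfkb1, Rel, Nfkbia, Nfkbib, Nfkbie, Nfkbiz and Tnfaip3 and the lower for Nfkb2, Rela and Relb. Those last genes were also the most GC-rich of the 10. In the highest GC bin, high-fat replicate 1 exceeded high-fat replicate 2 by a median of 0.147 over all genes. Neither link to this split was tested. All 11 B cell markers were above 0 (median 0.94). The plasma cell gene Igj passed the test, at 0.596 and 1.21 CPM against 3.66 and 3.05 CPM (adjusted p = 0.0476), and Cr2 and Mzb1 also had both high-fat libraries above both controls. Without high-fat replicate 2 the log2 fold change of Nfkbia was 0.305 (adjusted p = 0.375). The sum of 10 T and NK cell markers was 8.57 to 11.2 CPM in controls against 7.09 and 29.7 CPM on high-fat diet. The 15 mesothelial and fibroblast markers summed to 453 to 462 CPM and 585 to 655 CPM, of which Pdpn gave 425 to 441 CPM and 482 to 499 CPM, and all 11 tested were above 0 (median 2.02), with Lum past the test (adjusted p = 0.031). Of the 15, 5 reached 1 CPM with control diet. The 10 neutrophil markers summed to 90.8 to 97.7 CPM and 59.0 to 74.9 CPM, of which Csf3r gave 39.6 to 42.4 CPM and 23.0 to 27.9 CPM. All 8 tested were below 0 (median -0.81), with Csf3r past the test (adjusted p = 0.0476 by edgeR). Dendritic cell markers (9 genes) summed to 16.5 to 17.1 and 9.78 to 15.6 CPM. Of the 8 tested, 6 were below 0 (median -1.44), 5 of them at an unadjusted p under 0.05, and Cd209a passed the test (-2.34, adjusted p = 0.0161), while Ccr7, the most abundant, had 5.34 and 5.38 CPM against 5.49 and 10.6 CPM. Eosinophil markers (6) summed to 10.4 to 19.6 and 5.17 to 7.78 CPM, endothelial markers (6) to 9.45 to 9.47 and 10.6 to 13.8 CPM, and mast cell and basophil markers (7) to 60.3 to 80.7 and 66.4 to 86.2 CPM. Most of the endothelial sum came from Kdr, at 6.26 and 6.49 CPM against 7.56 and 7.36 CPM, and Pecam1, at 2.81 and 2.70 CPM against 2.74 and 6.13 CPM. The endothelial gene Emcn had no count in any library, and every other listed marker had a count in at least 1. The 9 macrophage markers summed to 25500 to 26600 CPM and 19800 to 24200 CPM, with 8 below 0 (median -0.18) and the efferocytosis receptor gene Mertk past the test (adjusted p = 0.0449).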

How the data were processed

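The authors deposited raw read counts per gene, 1 table per library, whole numbers with no normalization. TopHat2 2.0.10, Cufflinks 2.1.1, HTSeq and mm9 are named in the submitters' processing notes; the strand setting: not given in the sources used here. Exon positions (mm9, deposited as a gene model file) gave exon lengths and overlaps; of the 10 genes, Nfkb2 and Nfkbib share exon bases with another gene model, and those models had at most 3 counts per library. The 5 summary lines were left out of totals: as a share of each table's sum, those lines included, multiply aligned reads were 37.5% to 48.5%, reads in no gene 13.5% to 15.0%, ambiguous reads 0.664% to 0.823%.

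Genes were kept by filterByExpr (minimum count 10, minimum total 15) and tested by edgeR 4.0.16's quasi-likelihood test (TMM, robust, diet as the term, 2 residual degrees of freedom) in R 4.3.3, adjusted over all genes tested. SE is the log2 fold change over the square root of F. The code was tested on simulated data. Replicates differed beyond sampling noise (chi-square per degree of freedom 33.8 and 34.9). Alternatives were other scalings and filters, DESeq2 1.42.0, limma-voom (limma 3.58.1), a replicate block, each library left out and, added after seeing the data, GC content and exon length trends removed by splines, with GENCODE M21 transcript GC matched by RefSeq accession for 95.3% of genes tested. The 10 genes and all lists were chosen with earlier results of these data known. Named from each pathway list were genes past the threshold and the 4 with the smallest p; other names are marked.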

Additional observations from a re-analysis of the deposited data

How the results depend on the processing

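Genes called higher and lower went from 41 and 37 to 255 and 267 with no filter on low counts, 25 and 21 with a CPM filter, 164 and 195 by DESeq2, 14 and 14 by limma-voom, and 69 and 101 after removal of the GC and length trend; leaving out 1 library gave 1 to 436 higher and 2 to 387 lower. Of the 10 genes, 1 (Nfkbia) was called with no filter (log2 fold change 0.41), by DESeq2 (0.41) and in 1 leave-one-out fit (0 to 1 called). Leave-one-out ranges were 0.31 to 0.51 for Nfkbia, -0.25 to 0.0018 for Nfkb1, -0.32 to 0.11 for Rel, -0.03 to 0.10 for Nfkbie, -0.55 to -0.25 for Relb, -0.45 to -0.09 for Nfkb2, -0.44 to -0.07 for Rela, -0.26 to -0.06 for Nfkbiz, 0.04 to 0.10 for Nfkbib and -0.32 to -0.09 for Tnfaip3. The sign changed for Nfkb1 and Rel without high-fat replicate 1, and for Nfkbie without control replicate 2 (-0.0321) or high-fat replicate 2 (-0.0204). The cause was not tested.

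IKK-like kinases called lower went from 0 to 1 with no filter, and 0 to 1 leaving out 1 library. Target genes called higher went from 2 to 7 with no filter, 4 by DESeq2, 0 by limma-voom and 0 to 11 leaving out 1 library; those called lower from 1 to 3, 2 by DESeq2, 2 with the GC trend removed, and 0 to 4. Immediate-early genes called higher went from 1 to 2 with no filter, 0 by limma-voom and 0 to 2 leaving out 1 library.

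The labels link same-numbered libraries by their number only. Their deviations correlated at 0.0888 over all genes. In the highest GC bin, replicate 1 exceeded replicate 2 by a median of 0.253 with control diet and 0.147 with high-fat diet. Whether same-numbered libraries shared a batch was not tested. With the replicate block 49 genes were called higher and 64 lower, and 0 of the 10 genes; Nfkbia was at 0.41 (adjusted p = 0.0777, edgeR).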

Other observations

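The genes whose pattern over the 4 libraries was nearest to that of Nfkbia were picked by the root mean square distance of log2 CPM centred on its mean, among 8481 genes with RefSeq names averaging 5 CPM or more. They were Bst1 (distance 0.00858), with 81.7 and 83.9 CPM in the controls and 102 and 117 CPM after high-fat feeding, Eif2s2 (0.0127), with 227 and 237 CPM and 289 and 335 CPM, and 2700089E24Rik (0.0172), with 76.8 and 80.3 CPM and 99.0 and 114 CPM. Of the related lists, the nearest was the target gene Il1a, at rank 17, with 82.6 and 87.2 CPM and 99.0 and 118 CPM. With 4 libraries many genes share such a profile, and these are descriptions only.

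Within 100 kb of 9 of the 10 genes lay 47 other genes tested, counted once for each gene they neighbour. By edgeR, DESeq2 and limma-voom 0 of them passed, against 0.612%, 2.82% and 0.220% of all genes. Of the 47, 5 had an unadjusted p under 0.05 by edgeR, against 17.0% of all genes. The one tested neighbour of Nfkbia, the proteasome subunit gene Psma6, 71.0 kb away, had a log2 fold change of 0.29 ± 0.11 (adjusted p = 0.254).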
